A study of Drosophila melanogaster with 3 samples.

Results

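The peaks described here are the topi-eGFP binding peaks whose summit lies at or just upstream of a single protein-coding promoter. A peak of the optimal set, the set thresholded by the irreproducible discovery rate (IDR), was a member when the transcription start site (TSS) closest to its summit belonged to a protein-coding gene, lay within 500 bp, and was transcribed away from the summit. Peaks at divergent pairs of coding promoters, with TSSs at most 1000 bp apart, were left out. The rule used position only, and it gave 1649 members among 8424 IDR peaks, or 19.6%. They made up 54.1% of the 3050 IDR peaks with a coding TSS within 500 bp, the others being 865 divergent and 536 downstream peaks. Of the members, 118 also had a TSS of a non-coding gene within 500 bp and 55 had the TSS of another coding gene there.

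The study profiled chromatin immunoprecipitation with an anti-GFP antibody in Drosophila melanogaster. It holds 3 libraries of 1 group, replicates 1 to 3, from a transgenic line that stably expresses topi with GFP at its C terminus. All came from whole animals at the white prepupa stage, males and females pooled, with sonicated chromatin and a size range of 200 to 800 bp. All 3 libraries were set against 1 control alignment, and no library from flies without the tag was used here, so binding that needs topi and signal that does not cannot be told apart. The labels number biological replicates but do not say whether they were separate collections of animals, so the spread between them may be partly technical. No label used here names the promoter that drives the fusion gene. The lists hold no read counts, so depth is unknown. Each relaxed list stops at 30000 peaks. A peak was unlisted in a replicate when no peak of that list shared at least 50% of either interval. Such a peak may have fallen below that rank or been called with other bounds. Of the 1649 members, 1453, 1619 and 1643 were listed in replicates 1, 2 and 3.

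A promoter is the stretch around the TSS where the general transcription machinery assembles. In flies, promoters of broadly active genes often carry the DNA replication-related element (DRE), bound by Dref, or motif 1, bound by M1BP, whereas promoters of regulated genes more often carry an initiator, a TATA box or GAGA elements. Topi, a zinc-finger protein, belongs to tMAC, the testis meiotic arrest complex and a relative of the somatic dREAM complex. It is known for turning on spermatocyte genes in the male germ line.

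Windows of 101 bases around the summits of 10 members are printed first, 5′ to 3′ on the strand of the gene, from the RefSeq copy of the dm6 assembly. The first 3, beside Ugalt, CG14100 and CG18549, are the strongest of those whose sequence is shown, and capitals mark runs of at least 6 letters that are A or T. In the windows at eEF1gamma and RpL27 capitals mark the DRE, TATCGATA. At RpL30 and RpL37A they mark motif 1, GGTCACAC. At PAN3 and Hsp83 they mark the word ACACTG or its reverse complement CAGTGT, the 6-letter word with the highest ratio of members to all coding TSSs. At pes they mark Ohler motif 7, CANCNCTA. The sequences were chosen to show the letter groups that the results below turn on.
Ugalt (chrX:2703836-2703936, minus strand): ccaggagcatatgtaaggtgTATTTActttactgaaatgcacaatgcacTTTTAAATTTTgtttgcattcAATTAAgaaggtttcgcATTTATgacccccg
CG14100 (chr3L:19590562-19590662, minus strand): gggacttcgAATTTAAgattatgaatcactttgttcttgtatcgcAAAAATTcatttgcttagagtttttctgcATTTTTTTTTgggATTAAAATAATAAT
CG18549 (chr3R:12449134-12449234, plus strand): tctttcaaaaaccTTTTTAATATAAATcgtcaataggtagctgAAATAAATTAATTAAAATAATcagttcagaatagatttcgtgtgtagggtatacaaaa
eEF1gamma (chr3R:29220084-29220184, plus strand): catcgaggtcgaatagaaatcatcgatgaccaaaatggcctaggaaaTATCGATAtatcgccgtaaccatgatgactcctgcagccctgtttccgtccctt
RpL27 (chr3R:25685004-25685104, minus strand): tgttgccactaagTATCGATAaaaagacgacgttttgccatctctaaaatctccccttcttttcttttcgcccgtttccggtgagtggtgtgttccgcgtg
RpL30 (chr2L:19009205-19009305, minus strand): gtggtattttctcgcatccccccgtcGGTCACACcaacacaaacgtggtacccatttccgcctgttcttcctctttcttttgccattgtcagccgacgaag
RpL37A (chr2L:5070899-5070999, plus strand): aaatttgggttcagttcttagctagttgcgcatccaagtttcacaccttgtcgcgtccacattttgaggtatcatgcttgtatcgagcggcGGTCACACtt
PAN3 (chr3L:3081388-3081488, plus strand): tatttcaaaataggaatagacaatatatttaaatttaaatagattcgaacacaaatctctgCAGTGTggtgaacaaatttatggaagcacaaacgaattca
Hsp83 (chr3L:3193048-3193148, plus strand): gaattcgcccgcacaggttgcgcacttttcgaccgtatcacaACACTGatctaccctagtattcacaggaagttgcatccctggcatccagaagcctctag
pes (chr2L:7994352-7994452, minus strand): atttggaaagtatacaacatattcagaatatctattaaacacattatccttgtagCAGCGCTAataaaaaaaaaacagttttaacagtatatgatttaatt

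Each of these windows is centred on its summit. The motif 1 match at RpL37A lay near the right-hand end, on the gene side of the summit, and the DRE at RpL27 lay near the left-hand end. Both DRE and motif 1 examples were from genes of protein synthesis, which reflects their selection. Stronger members lay at CG11151 with a DRE and at CG10068 with motif 1.

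Binding strength was read from the authors' peak signal, an enrichment over control that is used here only within a list. Members had a median pooled signal of 186.7, with quartiles of 128.1 and 361.1. The median was 179.8 over all IDR peaks, 216.8 at divergent promoters and 140.6 at downstream summits. The upper tail held more members: 86 of 1649, or 5.22%, had a signal of at least 1000, against 246 of 8424, or 2.92%, of all IDR peaks. The 2 strongest peaks of the whole IDR set were members, at Ugalt and CG14100.

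Ugalt encodes a transporter of UDP-galactose into the Golgi, and its member lay at chrX:2703654-2704127 with the summit 34 bp upstream of the TSS. Its pooled signal was 4484, and its replicate signals were 1183, 1453 and 1879 in replicates 1, 2 and 3. It ranked first in every replicate. The member at CG14100, at chr3L:19590379-19590866 and 88 bp from the TSS, had replicate signals of 1125, 1228 and 1702 and ranked 2, 3 and 2. All 20 of the strongest members were among the 8424 strongest peaks of all 3 replicates.

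The next of these 20 sat beside genes of varied roles. At larp, which encodes a La-related RNA-binding protein, the signals were 641.4, 958.6 and 1078 in the 3 replicates. At Hsp27, a small heat shock protein gene, they were 528.6, 868.7 and 1043. At ph-p, which encodes the Polycomb group protein polyhomeotic proximal, they were 753.2, 697.5 and 926.9, and the summit lay 452 bp upstream in an intron of the same gene. At Gapdh2, which encodes a glycolytic dehydrogenase, they were 389.1, 894.3 and 872.6, so that its rank was 81 in replicate 1 against 19 and 40 in the others. At eIF6, which encodes a factor of large ribosomal subunit assembly, they were 545.4, 532.6 and 815.6, with ranks of 34, 79 and 48. Replicate 3 had the highest signal in 19 of the 20 and replicate 1 the lowest in 18. The lists are not scaled between libraries, so no difference between replicates is read from this order.

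**Figure D1:**
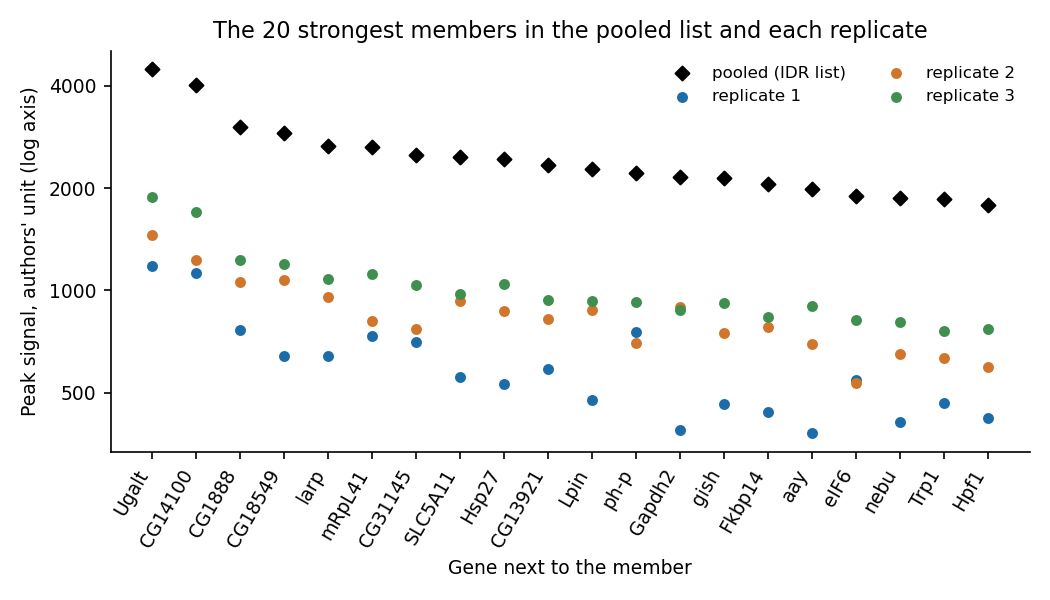
Peak signal in the authors' unit (log axis) for the 20 strongest members, named by gene on the horizontal axis, in the pooled IDR list (black diamonds) and in each replicate's list (coloured points). Ugalt and CG14100 stand highest in all 4 lists, and replicate 1 spreads most in order, with Gapdh2 and aay at 389.1 and 379.2.

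The remaining strong members named by the same rule included Lpin, the phosphatidate phosphatase lipin, with a pooled signal of 2277. Fkbp14, a peptidyl-prolyl isomerase of the endoplasmic reticulum, had 2058. The value at gish, a casein kinase gene, was 2135, and at aay, a phosphoserine phosphatase gene, 1989. Trp1, a component of protein translocation into the endoplasmic reticulum, had 1857, and Hpf1, a cofactor of histone ADP-ribosylation, had 1788. The other members of the 20, beside CG1888, CG18549, mRpL41, CG31145, SLC5A11, CG13921 and nebu, ranged from 1866 at nebu to 3026 at CG1888.

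Replicate support was counted as overlap of at least 50% of either peak with the 8424 strongest peaks of a replicate. Members were supported at 77.6% in replicate 1, 86.1% in replicate 2 and 90.7% in replicate 3 (84.8% ± 6.64, SD, n = 3). All IDR peaks gave 82.1%, 84.0% and 89.3%, and divergent peaks gave 76.8%, 87.2% and 93.5%. The order of members and all IDR peaks was not the same in the 3 replicates (mean difference of -0.35 percentage points, exact paired sign permutation test over 3 replicates, two-sided p = 1). Of the members, 1066 (64.6%) were in the strongest set of all 3 replicates, beside a background of 66% of all IDR peaks, so full support was no more frequent among members. Only 9 members were in none of the 3 sets.

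By rank, members stood a little ahead of the whole set. Their median ranks in the replicates' own lists were 3897, 3719 and 3829, with unlisted peaks placed last, and those of all IDR peaks were 4130, 4213 and 4145. Members ranked ahead in 3 of 3 replicates, with a mean difference of -347.7 places (exact paired sign permutation test, p = 0.25). That is the smallest p that 3 replicates allow, and over the 22 comparisons of this kind the smallest Benjamini-Hochberg adjusted p was 0.393. No comparison over replicates here could therefore pass a threshold of 0.05. Divergent peaks had median ranks of 3323, 3740 and 3316, ahead of the members in 2 of 3 replicates (p = 0.5, exact permutation). Downstream summits had median ranks of 8986, 4457 and 5344, behind the members in 3 of 3 replicates (p = 0.25, exact permutation). Across members, replicate signals had a Spearman correlation of 0.76 between replicates 1 and 2 (n = 1424 members listed in both), 0.86 between 1 and 3 (n = 1447) and 0.83 between 2 and 3 (n = 1614). These libraries share the control alignment.

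Summits of members lay at a median of 174 bp upstream of the TSS (position -174, quartiles -288 and -88). In the replicates' own 8424 strongest peaks, the upstream summits had medians of -192, -162 and -174. The rest of each relaxed list gave -203, -164 and -168, so the 2 parts of a list differed by less than the spread between replicates. What did differ was the side of the TSS. Among the strongest peaks at single promoters, 84.6%, 68.4% and 75.3% of summits lay upstream in replicates 1, 2 and 3, and in the rest of the lists 59.3%, 56.1% and 57.2% did. The share was higher in the strong part in 3 of 3 replicates, by 18.6 percentage points on average (SD of the difference 6.50, exact paired sign permutation test, p = 0.25). In the IDR set it was 75.5%, and among the 20304 pooled relaxed peaks that overlapped no IDR peak it was 58.2%.

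**Figure D2:**
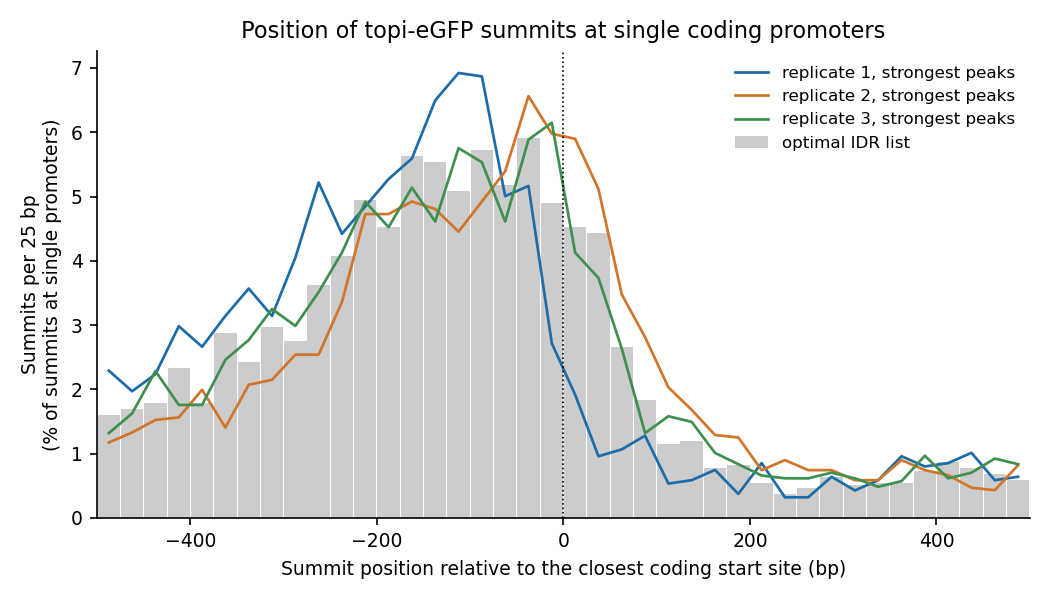
Position of summits relative to the closest coding TSS (horizontal axis, bp, negative upstream) as a percentage of all summits at single promoters per 25 bp, for the IDR set (grey bars) and the 8424 strongest peaks of each replicate (lines). The upstream side holds most summits in all 4 lists, and the drop at the TSS comes earlier in replicate 1 than in replicates 2 and 3.

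Many of the weaker members had the same interval width with the summit at its middle, and the precision of their positions was not tested. Of 1649 members, 699 (42.4%) had an interval of exactly 430 bp, and in 697 of these the summit was within 1 bp of the middle. The share among all IDR peaks was 42.7%. The median signal was 125 for these members and 316 for members of other widths. They made up 282 of 477 members (59.1%) within 100 bp of the TSS and 417 of 1172 (35.6%) farther away.

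The members nearest to the TSS were weaker and less evenly supported. By distance upstream there were 239 members at up to 50 bp, 238 at over 50 to 100, 454 at over 100 to 200, 336 at over 200 to 300, 220 at over 300 to 400 and 162 at over 400 to 500. Their median pooled signals were 149.5, 151.5, 212.3, 229.2, 212.8 and 201.7 in that order. Support in replicate 1 was 54.8% in the nearest range and 66.8% in the next, and between 79.3% and 89.6% in the 4 farther ranges. In replicate 2 it ran from 80.2% to 89.2% and in replicate 3 from 83.3% to 95.5% over the 6 ranges.

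Members within 100 bp were supported at 60.8%, 82.4% and 87.0% in replicates 1, 2 and 3, and those farther away at 84.5%, 87.5% and 92.2%. The nearer members were lower in 3 of 3 replicates, by 11.4 percentage points on average (SD 10.7, exact paired sign permutation test, p = 0.25). The differences were -23.7, -5.15 and -5.24 percentage points in replicates 1, 2 and 3. Their median ranks were 6608, 4691 and 5260 against 3219, 3242 and 3092.

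Base composition moved with distance. The median GC content within 100 bp of the summit was 43.3% in the nearest range and 38.8%, 34.8%, 32.8%, 32.3% and 33.3% in the following ones. Across all coding TSSs read at the middle of the same ranges the medians were 41.3%, 39.8%, 37.3%, 37.3%, 38.8% and 40.3%. Members over 100 bp from the TSS were thus lower in GC than coding promoters at the same offset, and those in the nearest range were higher. In replicate 1 the nearer members were less often supported in each GC range: 76.0% against 88.7% under 35% GC, 60.7% against 87.0% at 35 to 40%, and 54.9% against 68.6% at 40% and more. In replicate 2 the order turned at 40% GC and more, with 88.2% for the nearer and 86.3% for the farther members. Across the 1649 members, pooled signal had a Spearman correlation of -0.20 with position and -0.23 with GC content, and position had one of 0.41 with GC content. These are descriptions over peaks of the same libraries.

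**Figure D3:**
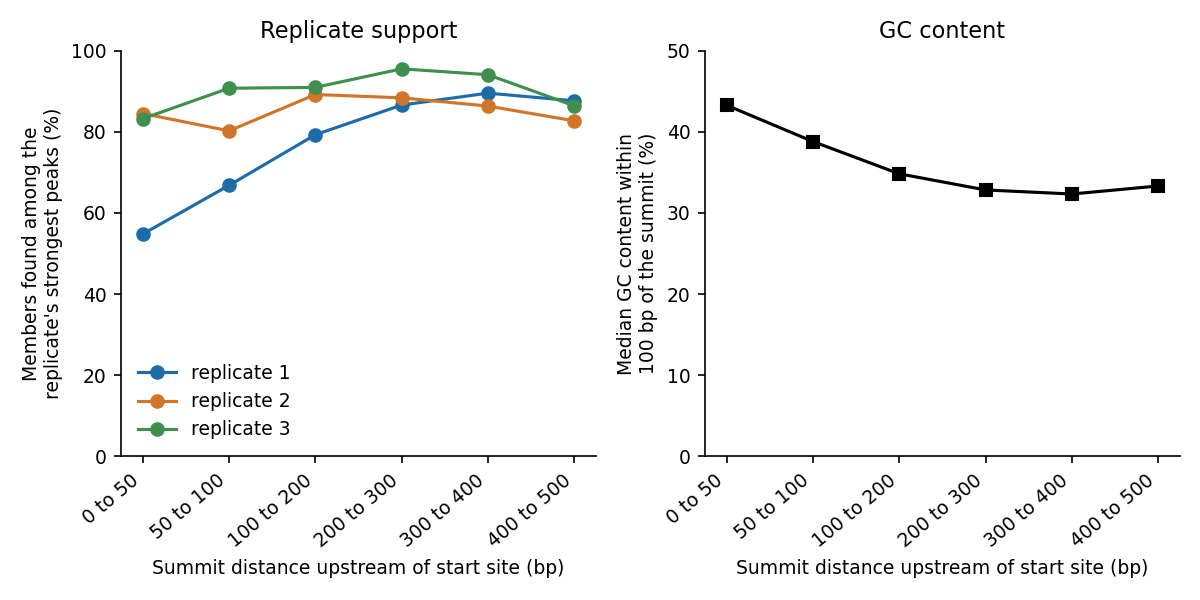
Left, share of members (%) found among the 8424 strongest peaks of each replicate by distance upstream of the TSS (bp). Right, median GC content (%) within 100 bp of the summit over the same ranges. Replicate 1 rises from 54.8% to between 79.3% and 89.6% beyond 100 bp, while GC content falls from 43.3% to between 32.3% and 34.8%.

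Stronger members were richer in A and T. Split into 5 quintiles by pooled signal, members had median signals of 105.4, 137.0, 186.7, 306.8 and 702.2 and median GC contents of 38.8%, 36.8%, 35.3%, 34.3% and 33.3%. Runs of at least 6 A or T letters, as marked in the Ugalt, CG14100 and CG18549 windows, covered a median of 19.4% of the 201 bases around the summit in the weakest quintile and 27.6% in the strongest. The value was 23.4% over all members, 26.4% at divergent promoters, 16.4% at downstream summits and 19.4% at the 2060 relaxed-only peaks that met the same position rule. Over all 19630 coding TSSs, read at the members' median offset of -174, it was 20.4%. The 6-letter words with the largest rise from the weakest to the strongest quintile were AAAATA, from 47.0% to 65.5% of windows, and ATTTAA, from 39.7% to 57.9%. Reverse complements were counted together. Those with the largest fall were AGAGCG, from 17.3% to 7.27%, and CGAGAG, from 13.3% to 3.33%. GAGAGC, from 18.5% to 8.79%, and CGATAG, from 17.0% to 7.27%, followed with equal falls. TATCGA, a word of the DRE, went from 20.3% to 11.2%.

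In the replicates' own lists, the upstream summits among the strongest peaks had median GC contents of 34.3%, 36.8% and 35.3%, and those in the rest of the lists 37.3%, 37.8% and 38.3%. The strong part was lower in 3 of 3 replicates, by 2.32 percentage points on average (SD 1.15, exact paired sign permutation test, p = 0.25). How far base composition itself affects peak calls was not tested. Repeats touched few members: in 1641 of 1649 at least 90% of the 32-letter words around the summit occurred once on the main chromosomes.

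Promoter motifs were searched within 100 bp of the summit on both strands. The DRE, TATCGATA, was in 86 members (5.22%), beside a background of 2.85% of all coding TSSs at the members' median offset. Motif 1, GGTCACAC, was in 2.97% against 1.91%, Ohler motif 7, CANCNCTA, in 11.0% against 6.92%, GAGAG in 28.3% against 24% and TATAAA in 34.3% against 32%. Divergent peaks held the DRE in 11.45%, motif 1 in 5.43%, motif 7 in 22.2%, GAGAG in 14.1% and TATAAA in 40.6%. Downstream peaks held them in 2.61%, 3.73%, 12.1%, 30.6% and 24.25%, in the same order. Relaxed-only peaks under the same position rule gave 4.85%, 3.40%, 8.69%, 30.2% and 31.0%. None of these shares was therefore highest in the members. Since core promoter motifs cluster close to the TSS, coding TSSs were also read at the members' own spread of offsets, each of the 6 distance ranges weighted by its members. On that reading the DRE was in 3.98% of coding windows, which put members at 1.31 times it, and motif 7 was in 8.24%, a ratio of 1.33. The ratio was 1.22 for GAGAG and 1.14 for TATAAA. For motif 1 the weighted share was 2.96% and the ratio 1.004, so members held it about as often as coding promoters do at such offsets. With a window of 200 bp each side the DRE ratio was 0.96, below 1, and that for GAGAG was 1.37.

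The shares changed with distance. In the nearest range the DRE was in 16.3% of members and in 6.65% of coding TSSs at the same offset. At over 50 to 100 bp the shares were 9.66% and 6.79%. At over 200 to 300 bp they had fallen to 0.89% and 2.76%, so the DRE was rarer in members there. Motif 7 was in 16.7% of the nearest members against 11.4%, and in 22.7% against 11.1% at over 50 to 100 bp. Motif 1 was in 9.21% of the nearest members against 5.87%, and in 4.20% against 5.30% in the next range. GAGAG was above the coding share in all 6 ranges, with 30.5% against 25.5% in the nearest and 28.2% against 19.8% at over 300 to 400 bp. The CHR-like site described below was too, with 33.5% against 33.3% in the nearest range and 42.6% against 29.5% in the farthest. The matches themselves lay at medians of -51 for the DRE, -38.5 for motif 1 and -66 for motif 7 from the TSS. Of 50 motif 1 matches 19 (38%) lay within 25 bp of the summit, where an even spread over the window would put 25.4%. For the DRE the share was 28.1% of 96 matches, and for GAGAG 18.2% of 1109.

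**Figure D4:**
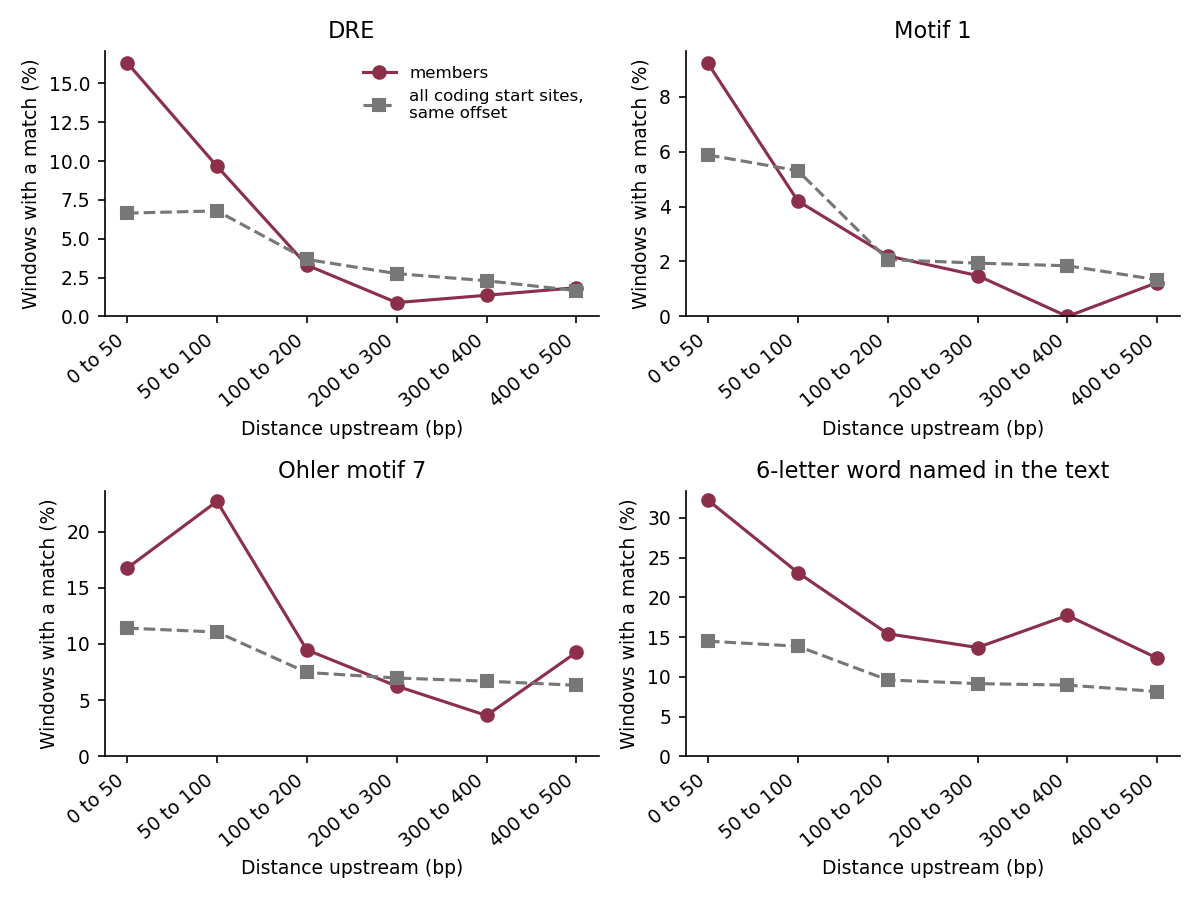
Share of windows (%) with a match within 100 bp of the summit, by distance upstream (bp), for members (circles) and for all coding TSSs read at the middle of the same range (squares). The DRE, motif 7 and the 6-letter word of the fourth panel exceed the coding background at 0 to 100 bp, and of the 4 panels that of the word alone lies above it in all 6 ranges.

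Members with a DRE were not the strong ones. Their median pooled signal was 138.1 against 192.5 without it, and the share with a DRE was 10.6% in the weakest quintile and 2.12% in the strongest. The 3 strongest members with one were at eIF6, with the signals given above, at CG1827, with 305.9, 516.0 and 635.1 in replicates 1 to 3, and at CG11151, with 268.6, 349.0 and 503.7. Of the 86 members with a DRE, 62 lay within 100 bp of the TSS. All members within 100 bp had a median signal of 149.7, against 213.8 farther away. How far the lower signal with a motif goes with distance was not tested. Members with motif 1, of which 32 of 49 lay within 100 bp, had a median of 154.0 against 190.1 without it. The strongest of these was at CG10068, with a pooled signal of 543.8, followed by the ribosomal protein genes RpL30 and RpL37A, whose windows are shown above. In the replicates' own lists the DRE was in 4.78%, 4.23% and 4.55% of strong upstream peaks and in 3.98%, 5.15% and 6.06% of the rest, higher in 1 of 3 replicates (exact paired sign permutation test, p = 0.5). Motif 7 was in 11.6%, 9.65% and 12.1% against 8.43%, 8.50% and 8.53%, higher in 3 of 3 (p = 0.25, exact permutation).

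The GAGA element was the motif whose share varied most between replicates. In the strong upstream peaks it was in 23.5%, 35.2% and 26.6% of windows in replicates 1, 2 and 3, and in the rest of the lists in 23.5%, 29.95% and 29.0%. The strong part was higher in 2 of 3 replicates (p = 0.75, exact paired sign permutation test). Of the 3 strongest members with GAGAG, SLC5A11 had signals of 555.3, 931.2 and 978.1, Gapdh2 those given above, and nebu 408.4, 649.7 and 805.8. In all 3 replicate 1 was lowest.

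The word ACACTG stood out among 6-letter words found in at least 5% of coding windows. It was chosen after the words were counted, so its share is a description. It was in 307 members (18.6%), against a background of 9.3% of coding TSSs at -174 and 10.6% at the members' own offsets, a ratio of 1.76. The word ACAGTG, whose reverse complement overlaps it, followed with 17.0% against 9.12%. The share was 32.2% of the nearest members against 14.5% of coding TSSs at that offset, and 12.3% against 8.16% in the farthest range. Motif 1 sites can extend into this word, and 26 of the 307 also held GGTCACAC, while 18 held a DRE and 31 motif 7. Over all members motif 1 was in 2.97%, the DRE in 5.22% and motif 7 in 11.0%, so the last 2 counts were near the background. Matches of the word did not gather at the summit: 25.2% of 337 lay within 25 bp. Members with and without it had close median signals of 188.9 and 186.0. It was also in 21.3% of divergent peaks, 16.8% of downstream peaks and 16.3% of IDR peaks with no coding TSS within 500 bp, so it was not particular to the members. Strong upstream peaks held it in 17.7%, 17.1% and 17.8% of windows in replicates 1 to 3 and the rest in 13.7%, 12.3% and 12.4%, higher in 3 of 3 by 4.77 percentage points (SD 0.72). Most members are among those strong peaks, so this restates how the word was chosen and is no test of it.

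Among members whose sequence could be shown, the strongest with the word lay at PAN3, a subunit of an mRNA deadenylase, with a pooled signal of 1462, and at for, which encodes a cGMP-dependent protein kinase, with 840.7. Hsp83, the fly Hsp90 chaperone, followed with 660.2, and its replicate signals were 113.7, 279.8 and 278.7. Of the sites tied to the relatives of tMAC, the CHR-like site was somewhat more frequent than in coding promoters at the same offsets. Its ratio was 1.10, and 1.04 and 1.06 with motif windows of 50 and 200 bp. The others were close to the coding share or below it. TTTGAA or TTCGAA, the CHR-like site of dREAM targets, was in 37.2% against 33.7%, the Myb site TAACGG in 5.09% against 5.61%, the TGIF site TGACAG in 6.00% against 6.91% and the E2F site GCGNGAAA in 3.21% against 3.21%.

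At the TSS itself the members' promoters leaned to the initiator. The letters TCAGT, placed within 3 bp of the initiator position on the sense strand, were at 191 of 1562 distinct TSSs (12.2%), at 8.23% of all coding TSSs and at 3.04% of the TSSs of divergent peaks. Among members over 100 bp upstream the share was 14.5%, and among those within 100 bp 7.34%. A TATAAA at -38 to -19 was at 3.07% of member TSSs and 6.16% of all coding TSSs. The polypyrimidine initiator of translation genes, read as CTTT at the TSS, was at 1.15% and 1.38%.

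The members lay next to 1432 of 13968 protein-coding genes, a background of 10.3%. Of these genes 1248 had 1 member, 157 had 2, 23 had 3 and 4 had more. SNF4Agamma, which encodes the gamma subunit of the energy sensor AMPK, had 6 members along 3R between 21152889 and 21204767, with pooled signals from 108 to 484.5. Ptpmeg2, a tyrosine phosphatase gene, had 4, and the summits of its 3 strongest lay 191, 181 and 199 bp from separate TSSs, with pooled signals of 1741, 1320 and 700.7. In 1058 cases (64.2%) the TSS was the first of its gene. Summits lay between genes in 871 members (52.8%), in an intron of the same gene in 492 (29.8%), in an exon of the same gene in 93, and in an intron or exon of another gene in 100 and 93.

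Genes with a member were longer than coding genes as a whole and more often had at least 2 coding TSSs. Their median length was 5766 bp against 2164 bp for all coding genes and 2451 bp for genes with a divergent peak, and 55.1% had at least 2 coding TSSs against 26.5% and 36.5%. A gene with more TSSs offers more places for a member, and the share with one was 6.26% at 1 TSS (643 of 10269 genes), 14.8% at 2, 29.3% at 3 and 46.8% at 4 or more. Among genes with 1 TSS those with a member were still longer, with a median of 2550 bp against 1756 bp.

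Gene lists were read against the 10.3% of all coding genes. That background is not matched for TSS number, and the share ran from 6.26% at 1 TSS to 46.8% at 4 or more. How much of the share of a list, such as the ecdysone list, goes with TSS number was not tested. The lists were chosen with earlier results of these data known, so their shares describe and do not test. The ecdysone response list and the cytoplasmic ribosomal proteins had the highest shares, 40.6% and 35.5%.

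Ecdysone is the steroid hormone whose late larval pulse starts metamorphosis. The list holds genes of hormone synthesis as well as targets. Of its 32 genes, 13 had a member (40.6%), and in the replicates' own strongest peaks 28.1%, 46.9% and 43.8% of the genes had an upstream peak. Their 16 members lay at a median of -257.5, from -486 to -34, none held a DRE or motif 1 and 7 held GAGAG. Over all members more than 100 bp upstream, the DRE was in 2.05%, motif 1 in 1.45% and GAGAG in 27.7%. The lack of a DRE or motif 1 among these 16 was thus near the share at such distances. E23, an ABC transporter induced by the hormone, had its stronger summit 213 bp upstream, with replicate signals of 225.8, 430.5 and 438.0. A weaker summit of the same interval at -425 shares these replicate values. At hid, the cell death activator, the signals were 272.9, 315.1 and 469.2, with the summit at -334. Both were among the strongest peaks of all replicates, with ranks between 133 and 325.

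The nuclear receptor and early genes of the list were weaker. Eip74EF, an early ETS factor, had signals of 38.1, 112.5 and 146.2, and ImpE3, an ecdysone-inducible gene of imaginal discs, had 52.7, 155.7 and 142.4. At ftz-f1, the competence factor of prepupae, they were 13.3, 100.5 and 75.8, with a rank of 12439 in replicate 1 against 2415 and 4344. At Hr3, the early-late receptor, they were 10.1, 74.1 and 90.5. The receptor gene EcR had 2 members, at -368 and -474, with pooled signals of 143.2 and 105.1, and the second was not listed in replicate 1. Replicate 1 was the lowest in each of these except the stronger EcR member, where it ranked 3572 against 7731 and 5141. Of the 16 members 10, 14 and 15 were supported in replicates 1, 2 and 3, and 8 in all 3. With support asked of the other 2 replicates only, 12 genes had a member without replicate 1, 8 without replicate 2 and 7 without replicate 3.

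Members at Blimp-1 (pooled signal 304.3), a repressor that times ftz-f1, and at Eip63E (268.1), a cyclin-dependent kinase gene, also stood above the member median. Those at br (141.6 and 103.2), a family of early zinc-finger factors, ImpL2 (105.4), an insulin antagonist, Eip75B (101.5), a haem-binding nuclear receptor, and Hr78 (96.2), an orphan receptor, stood below it. For 9 of the 16 members the TSS was not the first of the gene, as at EcR, br, ftz-f1 and Eip75B, where the summit lay in an intron.

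Cytoplasmic ribosomal protein genes had members at 33 of 93 (35.5%). The shares in the replicates' own lists were 34.4%, 20.4% and 37.6%, so replicate 2 stood apart. Their 35 members lay close to the TSS, at a median of -19, and 29 of them within 50 bp. Of these 35, 10 held a DRE, 5 motif 1 and 4 GAGAG, and the median GC content was 42.8%. Over all members within 50 bp, the DRE was in 16.3%, motif 1 in 9.21% and GAGAG in 30.5%. Their median GC content was 43.3%, so that of the 35 was close to it. The median pooled signal of the 35 was 258.0, from 113.7 to 558.4, against a median of 149.5 over all members within 50 bp. Support was 30, 30 and 34 of 35 in the 3 replicates. The strongest were at RpL24, with 117.6, 158.4 and 264.7, at RpS28b, with 122.5, 170.9 and 234.0, and at RpS10b, with 132.8, 165.8 and 218.4. Replicate 3 was highest in all 3 genes. An IDR summit lay within 500 bp at 76 of the 93 genes (81.7%), of which 33 (35.5% of the 93) had a divergent peak and 10 a downstream peak. Of all 13968 coding genes, 3391 (24.3%) had an IDR summit, 1624 (11.6%) a divergent peak and 510 a downstream peak.

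The other genes of protein synthesis and folding spread out. Translation factors had members at 10 of 53 genes (18.9%), led by eIF6 and by eEF1gamma, whose signals were 185.5, 181.1 and 294.5. At eIF3c, a subunit of initiation factor 3, they were 134.7 and 178.0 in replicates 2 and 3, with no matching listed peak in replicate 1. Chaperones had members at 7 of 38 (18.4%), and all 9 of their members were in the strongest set of all 3 replicates. After Hsp27 came Hsp26, with 138.5, 288.9 and 309.1, and then Hsp83. Lower values were found at stv, a co-chaperone of Hsc70 with 3 members of 578.5, 310.8 and 214.1 in pooled signal, and Hsp22 with 384.1. Hsp22, Hsp26 and Hsp27 belong to the cluster of small heat shock genes on 3L.

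Mitochondrial ribosomal proteins had a member at 1 gene of 75, mRpL41. Of the 75, 33 (44%) had an IDR summit and 32 (42.7%) a divergent peak, beside 24.3% and 11.6% of all coding genes. With a TSS window of 200 bp, both TSSs of a divergent pair must lie within 200 bp of the summit. The count of genes with a member was then 7 (9.33%) beside 8.71% of all coding genes, so the low share rests on the wider window. The mRpL41 member was strong, with 732.0, 813.7 and 1115. Divergent peaks were at 1624 of all 13968 coding genes (11.6%), the background for the divergent counts that follow. Aminoacyl-tRNA synthetases had 2 of 33 (9 divergent, 27.3%), respiratory chain and ATP synthase 5 of 93 (15, 16.1%), proteasome subunits 4 of 48 (12, 25%), splicing factors 2 of 35 (6, 17.1%), RNA polymerase and general transcription factors 4 of 55 (12, 21.8%) and Mediator 1 of 29 (9, 31.0%). At 200 bp the synthetases had 4 and Mediator 3. Nuclear pore proteins had 0 of 22 and mitochondrial import 0 of 16, with 5 and 3 genes at divergent peaks. Vesicle traffic genes had 11 of 99, near the background, with Rab5, an early endosome GTPase, at 723.5. Several of these counts fell when a replicate was left out. With support asked of the other 2 replicates, vesicle traffic had 8, 6 and 7 genes without replicates 1, 2 and 3, proteasome subunits 4, 1 and 1, respiratory chain and ATP synthase 3, 3 and 1, RNA polymerase and general transcription factors 4, 2 and 2, synthetases 1 each time and splicing factors 0 each time. All coding genes had 1144, 1056 and 976 under the same settings, in place of 1432.

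Cell cycle and DNA replication genes had members at 9 of 59 (15.3%), all with pooled signals of at most 249.9, the value at CycE, which encodes the G1 to S cyclin. Without replicates 1, 2 and 3 the count was 7, 7 and 5, and it was 3 in the stronger set of 4212 IDR peaks. The CycE member was listed at 71.9 and 121.8 in replicates 1 and 3 and not in replicate 2. E2f1, the activating E2F, had 2 members of 172.3 and 102. Of 11 dREAM subunit genes 2 had members: Dp, the dimerisation partner of E2F, with 204.5, 246.3 and 288.9 at -183 and a second member at -408, and Rbf, the fly retinoblastoma protein, with 23.9, 33.1 and 49.6. Without replicate 1 or replicate 3, 1 of these genes had a member. Architectural and promoter protein genes had 3 of 24. These were BEAF-32 (pooled signal 268.0), psq (209.8) and row (209.7).

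None of the 9 tMAC genes, 5 testis TAF genes and 61 spermatid and spermatocyte genes had a member within 500 bp, beside 10.3% of all coding genes. In lists of 9 and 5 genes a count of 0 is near that share. With a TSS window of 200 bp 1 tMAC gene had one, beside 8.71% of all coding genes. With 1000 bp 1 testis TAF gene and 4 cuticle protein genes had one, beside 10.7% of all coding genes. In the tMAC and the spermatid lists 1 gene each had a divergent peak. Cuticle proteins had 0 of 122 and digestive proteases 0 of 31, while chemoreceptors had 3 of 230, at Obp83g, Obp99b and Ir94f. Cytochrome P450 genes had 7 of 83, led by Cyp310a1 with 169.3, 295.3 and 358.6, and 1 at 200 bp. In the replicates' own strongest peaks the tMAC and testis TAF genes had no upstream peak in any replicate, and the spermatid list had one only in replicate 2, at 1.64% of its genes.

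**Figure D5:**
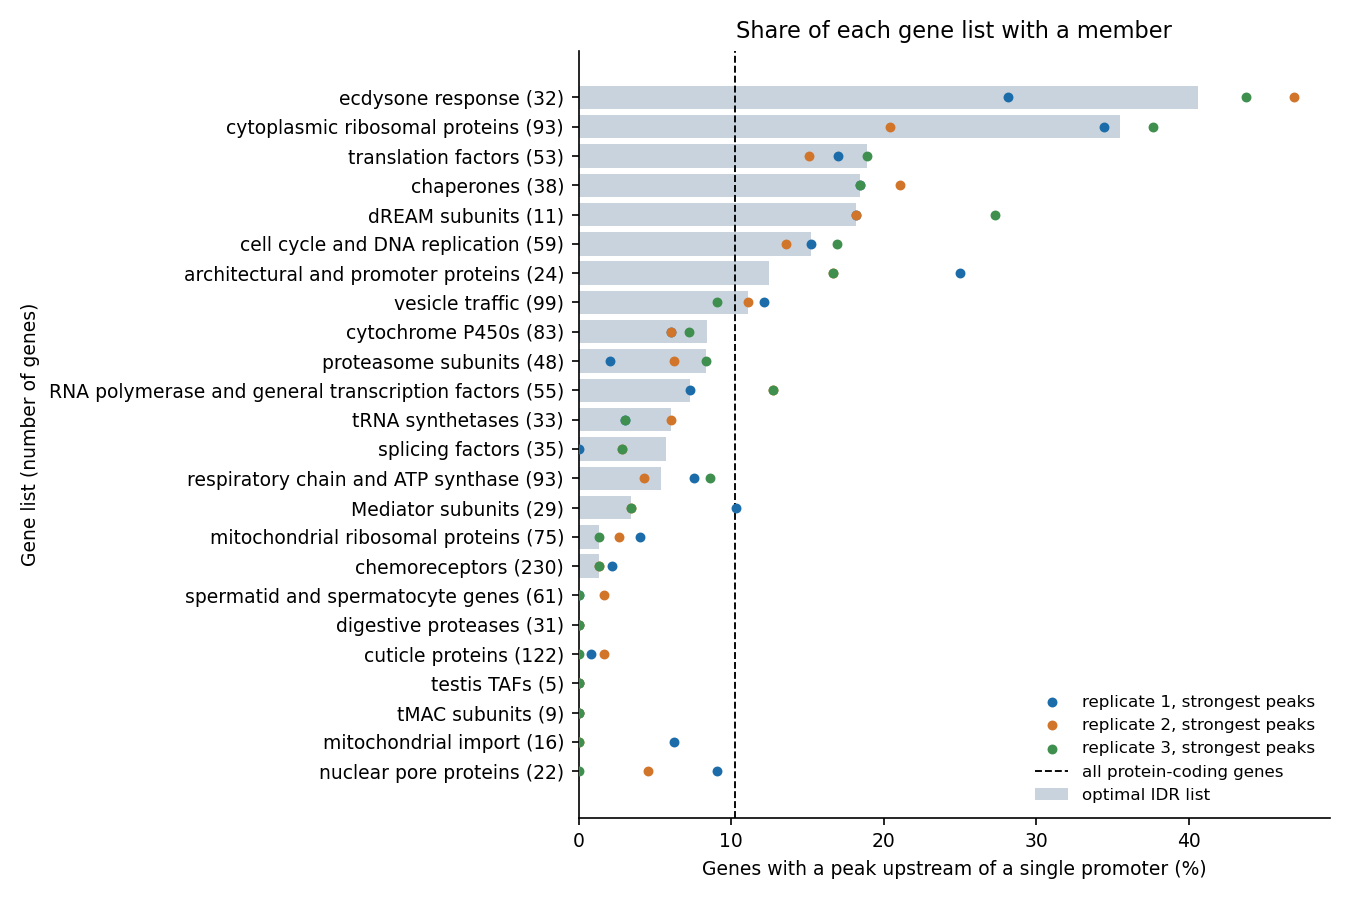
Percentage of the genes of each list (size in brackets) with a member in the IDR set (bars) and with an upstream peak in the strongest 8424 peaks of each replicate (points), beside the 10.3% of all protein-coding genes (dashed line). Ecdysone response and cytoplasmic ribosomal protein genes lie above the line in all 3 replicates, and testis and cuticle lists lie at or near 0.

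The X held 336 members (20.4%, against 20.2% of all IDR peaks). The small 4th chromosome held 12 (0.73%, against 0.31% of all IDR peaks), so 12 of its 26 IDR peaks were members. At the limits of the rule, the members farthest out were at GstD1, at -500 with a pooled signal of 171.9, and at CG10479, at -499 with 124.2. Just outside lay peaks at Cpr72Eb, at -501 with 574.9, and jar, at -505 with 738.0. At the TSS, the summits at jing (244.3) and eEF5 (156.9) coincided with it, and those at Vha16-1 (109.5) and whd (99.3) fell 1 and 2 bp past it.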

How the data were processed

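Peak lists came from 3 libraries. The authors, per the deposited README texts, called relaxed lists for each replicate and for the pool against a control alignment, then an optimal IDR set from them. No source used here names the aligner, the peak caller, their versions or the IDR threshold. The signal of each peak is the enrichment deposited by the authors, not scaled between libraries. The −log10 q-value deposited by the authors was 4.28 for all IDR peaks and was not used as a filter. Summits are the authors' offsets, written 1-based. The dm6 lists were used. The dm3 lists were not used, since the rule needs dm6 positions. The relaxed lists hold 30000 peaks each, and ranks of unlisted members were set just past that. The 43 members with equally close TSSs of several genes took the first, and 52 shared their interval with another summit.

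TSSs were the starts of protein-coding transcripts of the dm6 assembly in Ensembl release 115. Sequence came from the RefSeq copy of it. Those on 2R are not printed. Motifs were counted within 100 bp of the summit on both strands, and GC content and 32-letter uniqueness in the same window. Replicate values were compared by the exact paired sign permutation test, two-sided, over 22 comparisons. Peaks and genes were otherwise described beside their background.

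The members, gene lists, motifs and named genes were chosen with earlier results of these data known. The rule named the 20 strongest members, the 3 strongest with each of 6 motif families (DRE, motif 1, GAGA, E-box, TATA, ETS), up to 3 members per gene list, every dREAM, tMAC and testis TAF member, and those next to the limits of the position rule. Further members of the ecdysone, chaperone and cell cycle lists, and SNF4Agamma, Ptpmeg2, PAN3, for, pes and RpL27, were picked once their values had been seen. Alternatives changed the TSS window, TSS set, motif window, overlap rule, peak set and replicates. Scripts were tested on simulated data. The versions were scipy 1.17.1, numpy 2.4.6, matplotlib 3.10.9 and pandas 2.3.3 under Python 3.11.15. No sample was left out.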

Additional observations from a re-analysis of the deposited data

How the results depend on the processing

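Of 374 alternative values, 206 stayed within 1.5 times a main count or within 1 SD of the replicates. Of those for the main results, 37 stayed and 43 moved. The main results were the numbers of members and genes, support, position and side of the TSS. They also covered the DRE, motif 1, motif 7, ACACTG and the ecdysone and cytoplasmic ribosomal protein lists. The 1649 members became 869 among the 4212 strongest IDR peaks, with 785 genes in place of 1432. The median position of -174 was -96 and -228 with TSS windows of 200 and 1000 bp, -201 in that stronger set, and between -199 and -182 with a replicate left out. Support of 84.8% was 97.7% in that stronger set. Leaving out a replicate put it at 81.8% to 88.4%, a form chosen after the planned one proved to give full support by construction. The DRE share of 5.22% was 9.33% and 3.896% at 200 and 1000 bp, 7.14% with first TSSs, 3.34% in that stronger set, 2.67% and 6.79% with motif windows of 50 and 200 bp, and 3.88% to 4.15% without a replicate. For motif 1 (2.97%) these were 4.74%, 2.54%, 3.40%, 2.19%, 1.70%, 5.09% and 2.17% to 2.49%. For motif 7 (11.0%) they were 17.0%, 8.98%, 13.6%, 9.55%, 5.76%, 18.1% and 10.4% to 10.7%. For ACACTG, an alternative set added after seeing the data, 18.6% became 21.2%, 17.6%, 19.1%, 19.1%, 8.13%, 29.6% and 17.9% to 19.0%. Against coding TSSs at the members' own offsets, the DRE ratio was 1.22, 1.31 and 0.96 with motif windows of 50, 100 and 200 bp, so its excess ended at 200 bp, and motif 1 gave 1.14, 1.004 and 0.895. ACACTG stayed at 1.504, 1.76 and 1.49. Of the ecdysone genes 5, 7 and 7 to 12 had a member with a 200 bp window, in that stronger set and without a replicate (13 in the main set). With a 1000 bp window 15 had one. Of the 93 cytoplasmic ribosomal protein genes, 47 had a member with a 200 bp window and 24 with 1000 bp, in place of 33. The count was 26 in that stronger set and 25 to 28 without a replicate. A change of TSS window also changes which peaks are left out as divergent, since both TSSs of a pair must lie within it of the summit. A larger motif window holds more letters, and the stronger set fewer peaks. How much of each change goes with these was not tested, nor was any other cause. The difference in support between members within 100 bp and farther ones reversed in replicate 2 at 40% GC or more, at 1.96 percentage points. Depth limits cannot be given.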
